A study of Mus musculus with 7 samples.

Results

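Uterine gene expression 18 h after dihydrotestosterone (DHT) was compared with that after vehicle, with 1 array of pooled RNA on each side. The arrays were chosen by their titles, 18 h for the treated pool and 0 h for the vehicle pool, and they are 2 of the 7 arrays in the series. Both pools came from C57BL/6 females aged 10 to 11 weeks whose ovaries had been removed 7 days before death, so all groups lacked ovarian hormones. The treated mice were given 0.1 mg DHT under the skin 18 h before they were killed. The vehicle mice were killed 24 h after an injection without DHT, although the title of their array reads 0 h. The other 5 arrays, from mice killed 1, 3, 6, 12 and 24 h after the same dose, are used only to place the 18 h values. The labels name 10 mice without saying whether that many went into each pool, and the series text lists a 0.5 h group where the titles have 18 h. With 1 array a side the differences have no replicate check, so they are given as ratios with no error and no test. No vehicle pool was killed 18 h after its injection, and DHT, the injection and the hour of death cannot be told apart. In whole tissue, fewer cells of a type and less RNA per cell cannot be told apart either.

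DHT is a potent natural androgen that is not turned into estrogen. Androgens act largely by switching genes on and off, and some of the genes they induce also answer to glucocorticoids. Cells that enter the cycle switch on the genes for DNA synthesis first and those for mitosis later, and many mitotic genes carry promoter elements that keep them off until after DNA synthesis. In the uterus, growth also involves new collagen and contractile protein.

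The measure is the signal of an Affymetrix U74Av2 probe set, a group of short probes that together read a transcript. A floor was set at 145.9, the 40th percentile over all arrays, lower signals were raised to it, and a ratio against a value at the floor is a lower bound. The median signal was 237.0 on the vehicle array and 231.2 on the 18 h array, within the 227.4 to 237.0 of all 7, and each array had 39.4 to 40.8% of its values below the floor. The ratio of 3 prime to 5 prime control signal, a measure of RNA quality, was 0.84 for Gapdh on the vehicle array and 0.83 at 18 h, and 1.14 and 1.08 for beta-actin. Of 12422 probe sets that are not the maker's controls, 8421 had a mean log2 level above the floor once lower signals were raised to it, so 1 signal over the floor was enough to pass, and they represented 6326 genes. Of these genes 24 passed only through the 18 h array and 58 only through the vehicle array, which fixed the direction of their ratio. As a check of the tissue label, Hoxa11, a homeobox gene of the uterine stroma, read 2354.6 on the vehicle array and 3706.2 at 18 h, and Esr1 480.8 and 459.0. The 4 ovary and oviduct markers that passed the filter, of 12 listed, had a summed signal of 1248 on the vehicle array and 1161 at 18 h.

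At 18 h 83 genes were at least 2-fold higher than on the vehicle array, which is 1.31% of the genes, and 65 were at least 2-fold lower, which is 1.03%. Over probe sets the counts were 114 and 89. Most genes lay close to vehicle, with a median log2 ratio of 0.00 and 5th and 95th percentiles of -0.61 and 0.62, and 45.8% of all genes lay above vehicle and 49.1% below, against which the counts of list members above or below are read. In 14 of the higher genes the vehicle signal was at the floor, and in 20 of the lower genes the 18 h signal was. The counts follow the floor: with the floor at the 20th percentile 230 genes were higher and 280 lower, and with the floor at the 60th percentile 37 and 24. Higher genes made up 56.1% of the genes past 2-fold, against 45.1% with the floor at the 20th percentile. A gene whose 18 h signal is above those of vehicle, 1 h, 3 h and 6 h is below called above the early arrays, which held for 19.9% of all genes. The reverse, below the early arrays, held for 19.1%. Ratios at 12 and 24 h are set beside those at 18 h, and all of them share the vehicle array.

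**Figure D1:**
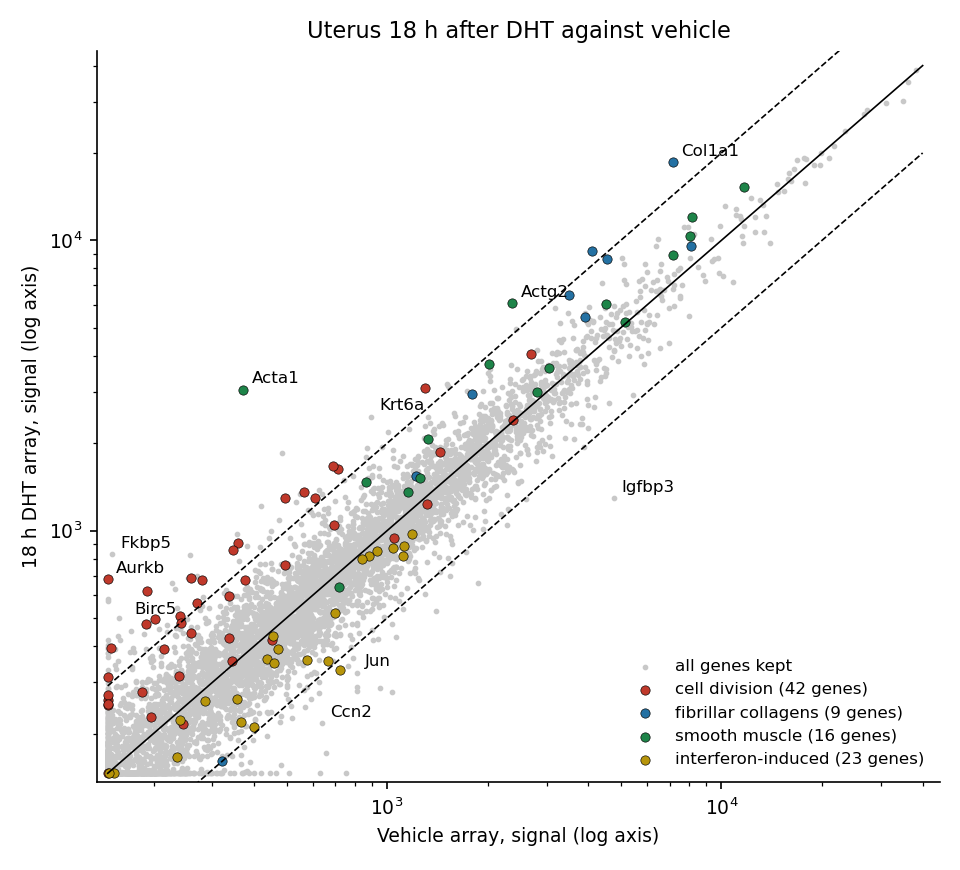
Signal of each of 6326 genes on the vehicle array (horizontal, log axis) and on the 18 h array (vertical, log axis), 1 array each, with values under the floor of 145.9 drawn at it. Each point is a gene, the solid line marks equal signal and the dashed lines 2-fold. Most cell division genes (red) lie above the solid line and the interferon-induced genes (yellow) on or below it, while Acta1 and Igfbp3 stand far from the line on either side.

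Genes that run mitosis were higher at 18 h than on the vehicle array. Of 63 listed genes for entry into mitosis, the spindle and chromosome separation, 50 were on the array and 42 passed the filter on low signals. Among these 42, 37 lay above vehicle and 4 below, 18 were at least 2-fold higher and none 2-fold lower, and the median log2 ratio was 0.85. Of the 42, 34 lay above the early arrays. The median was 0.07, 0.02 and 0.00 at 1, 3 and 6 h, 0.52 at 12 h and 0.72 at 24 h. The 18 h signal exceeded the 12 h signal in 32 of the 42 genes and the 24 h signal in 31. No such share was counted over all genes, whose median ratio to vehicle was 0.00 at 12, 18 and 24 h. For 7 of the 42 genes the ratio is a bound or both signals are at the floor, and 0 of the 42 passed the filter only through the 18 h array.

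The genes for entry into mitosis had the highest median of the lists, 0.98 over 16 genes, with 8 of them at least 2-fold higher. Aurkb, the kinase of the chromosomal passenger complex that corrects faulty spindle attachments, had signals of 93.2 on the vehicle array, 143.9, 76.8 and 192.0 at 1, 3 and 6 h, 364.8, 680.8 and 451.7 at 12, 18 and 24 h. Its vehicle signal was under the floor, so the 18 h array was at least 4.67-fold higher, and 18 h was its highest array. Cks1b, a small subunit that guides cyclin-dependent kinases to their substrates, read 495.1 on the vehicle array, 611.9, 654.3 and 800.6 at 1, 3 and 6 h, 1120.7, 1300.2 and 885.9 at 12, 18 and 24 h. It was higher on each later array up to 18 h, where its log2 ratio was 1.39. Its paralog Cks2 stayed between 356.8 and 424.6 on the vehicle and early arrays and read 668.0, 905.6 and 748.9 at 12, 18 and 24 h (log2 ratio 1.34 at 18 h). Cdc25c, the phosphatase that activates the mitotic kinase, read 149.1 on the vehicle array, barely over the floor, and 395.6 at 18 h.

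Cdk1, the mitotic kinase itself, read 562.2 on the vehicle array, 629.5 to 663.8 on the early arrays, 974.3, 1361.0 and 1054.6 at 12, 18 and 24 h. Ccnb2, a cyclin partner of Cdk1, separated 18 h from 12 h more than the kinase did: its signal was 1298.3 on the vehicle array, 1631.7, 3095.0 and 2264.0 at 12, 18 and 24 h. Ccna2, the cyclin that acts in DNA synthesis and at mitotic entry, was 1.09 above vehicle at 18 h and 0.41 at 12 h. Plk1, a kinase of spindle assembly, was 0.62 above vehicle on its brightest probe set and 0.65 and 0.22 on its other ones. Not all regulators were higher. Mybl2, which helps to switch mitotic genes on, was -0.19. Foxm1, another activator of these genes, was -0.15 on its brightest probe set and at least 0.83 on a dimmer one, where vehicle was under the floor.

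Promoter sequence is shown for 6 of these genes, those of largest ratio on the list that had a window in the RefSeq table with a motif searched, because mitotic genes are known for a pair of promoter elements. As a motif was required, its presence in these 6 is no finding. Mad2l1, of larger ratio than Ttk and Plk1, was passed over because its window held none. The elements are the CCAAT box and the cell cycle genes homology region, or CHR, searched as CCAAT and TTTGAA on both strands from 250 bases before to 50 after the RefSeq start. Each stretch below runs 5′ to 3′ along the gene from 110 bases before to 15 after the start in GRCm38.p6, and capitals mark every CCAAT or TTTGAA lying wholly inside it, read on either strand. The stretches are chr3:89418277-89418401 (minus strand) for Cks1b, chr13:51645122-51645246 (plus strand) for Cks2, chr10:69352898-69353022 (minus strand) for Cdk1, chr9:70421540-70421664 (minus strand) for Ccnb2, chr9:83834579-83834703 (plus strand) for Ttk and chr7:122159325-122159449 (plus strand) for Plk1. Aurkb, Cdc25c, Ccna2 and Wee1 are named only.
Cks1b: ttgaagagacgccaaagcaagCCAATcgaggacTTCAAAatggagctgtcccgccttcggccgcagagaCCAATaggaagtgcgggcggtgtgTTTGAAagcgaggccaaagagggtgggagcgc
Cks2: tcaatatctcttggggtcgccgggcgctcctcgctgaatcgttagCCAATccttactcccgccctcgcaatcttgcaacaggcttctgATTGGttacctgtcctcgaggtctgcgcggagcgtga
Cdk1: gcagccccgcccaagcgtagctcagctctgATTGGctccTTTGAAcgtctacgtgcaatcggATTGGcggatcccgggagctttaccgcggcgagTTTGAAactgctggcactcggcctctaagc
Ccnb2: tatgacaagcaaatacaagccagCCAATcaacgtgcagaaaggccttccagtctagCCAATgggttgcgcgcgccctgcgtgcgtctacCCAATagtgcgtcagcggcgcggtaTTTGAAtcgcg
Ttk: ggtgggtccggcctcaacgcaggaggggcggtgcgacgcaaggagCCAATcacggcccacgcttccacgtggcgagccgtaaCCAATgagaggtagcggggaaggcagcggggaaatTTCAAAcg
Plk1: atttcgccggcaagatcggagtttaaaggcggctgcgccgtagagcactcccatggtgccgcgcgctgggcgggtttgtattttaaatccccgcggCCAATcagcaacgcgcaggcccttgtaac

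Among 51 of the 63 cell division genes with a RefSeq window, 32 held TTTGAA, or 62.7%, against 18.1% of the windows of all 27025 genes. CCAAT was present in 37 of the 51, or 72.5%, against 37.9% of all windows. It was not particular to cell division genes. Its share was 63.6% for replication, 55.0% for smooth muscle, 93.3% for cholesterol synthesis and 80.0% for endoplasmic reticulum genes. The CHR of Cks1b and that of Cdk1 nearest the start begin 17 and 15 bases before it, with CCAAT boxes further upstream, while in Cks2 no TTTGAA was found in the window. A match is a description of the letters and shows neither binding nor a cause of the ratios.

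Genes of the spindle and of cytokinesis, the step that parts the daughter cells, all lay above vehicle at 18 h. The median over 17 genes was 0.85 (0.51 with the floor at the 60th percentile), 6 were at least 2-fold higher and 16 lay above the early arrays. Birc5, which encodes survivin, a partner of Aurkb, read 191.5 on the vehicle array, 171.6 to 207.8 on the early arrays, 426.1, 618.6 and 495.0 at 12, 18 and 24 h. The 3 later arrays were all above the 4 others, and 18 h was 3.23-fold above vehicle. Prc1, which bundles the microtubules between the separating chromosomes, stood at 339.8 to 383.7 on the vehicle and early arrays, 552.4, 856.1 and 489.5 at 12, 18 and 24 h. Kif22, a motor that pushes chromosome arms, was 1.27 above vehicle and Ckap2, a spindle protein, 1.29.

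Genes for chromosome structure and separation were split. Of 9 genes, 6 lay above vehicle and 4 were at least 2-fold higher. Their median of 0.59 is that of few genes and moved between 0.30 and 0.89 with the processing. Top2a, which untangles sister chromosomes, read 190.5 on the vehicle array and 477.4 at 18 h (log2 ratio 1.33). Cdc20, which starts the destruction of mitotic proteins, had 713.6 on the vehicle array, 964.9, 1625.5 and 1334.6 at 12, 18 and 24 h. Smc2, a condensin subunit, was 1.28 above vehicle. Mki67, the proliferation marker, was 1.40 above vehicle on its brighter probe set and -0.74 on a second probe set of the kind whose probe choice the maker relaxed. Ube2c, a ubiquitin enzyme of mitosis, was at the floor on both the vehicle and the 18 h arrays, although it was at least 1.31 above vehicle at 12 h and 1.15 at 24 h.

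DNA replication genes were less far from vehicle at 18 h than the mitotic genes, and their median was lower at 18 h than at 12 h. Over 31 replication genes the median log2 ratio was 0.25, against 0.43 at 12 h and 0.00 at 24 h, and 25 lay above vehicle at 18 h. Prim1, a primase subunit, passed the filter only through the 18 h array and so had to lie above, and without it the median was 0.26 with 24 of 30 above. The 18 h median was 0.15 without the filter and 0.13 with the floor at the 60th percentile. The 18 h signal exceeded the 12 h signal in 8 of the 31 genes, with no such share counted over all genes. Only Pold2, a subunit of the lagging-strand polymerase, was at least 2-fold higher, on a probe set of relaxed probe choice, at 871.1 on the vehicle array, 1643.7, 1920.4 and 995.6 at 12, 18 and 24 h. Mcm5, part of the replicative helicase, peaked at 12 h: it read 1285.6 on the vehicle array, 2731.7, 2089.3 and 1266.1 at 12, 18 and 24 h. Rpa1, which coats single-stranded DNA, was the lowest member at -0.70, from 842.1 on the vehicle array to 519.4 at 18 h, although it was 0.70 above vehicle at 12 h. The E2F element, searched as TTTNNCGC on both strands, was in 11 of 33 replication promoters, or 33.3%, against 5.27% of all windows.

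Nucleotide supply genes had a median of 0.29 over 11 genes, and chromatin genes lay between replication and mitosis. Rrm1, the large subunit of ribonucleotide reductase, which makes the building blocks of DNA, read 356.3 on the vehicle array, 896.7 at 12 h and 970.0 at 18 h. Its partner Rrm2, under the floor on the vehicle array, was higher by at least 0.80, against 1.60 at 12 h. The 18 chromatin genes had a median of 0.42, and 12 of them lay above the early arrays. Hmgb2, a DNA-bending protein of dividing cells, was 1.23 above vehicle, and the histone variant gene H2ax was 0.87 above it. The genes that control the step before DNA synthesis had a median of 0.00 over 18 genes. Of those, Ccne1, the cyclin that starts DNA synthesis, was 0.74 above vehicle, and Cdkn1c, an inhibitor of cyclin-dependent kinases, read 1559.4 on the vehicle array and 774.8 at 18 h.

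**Figure D2:**
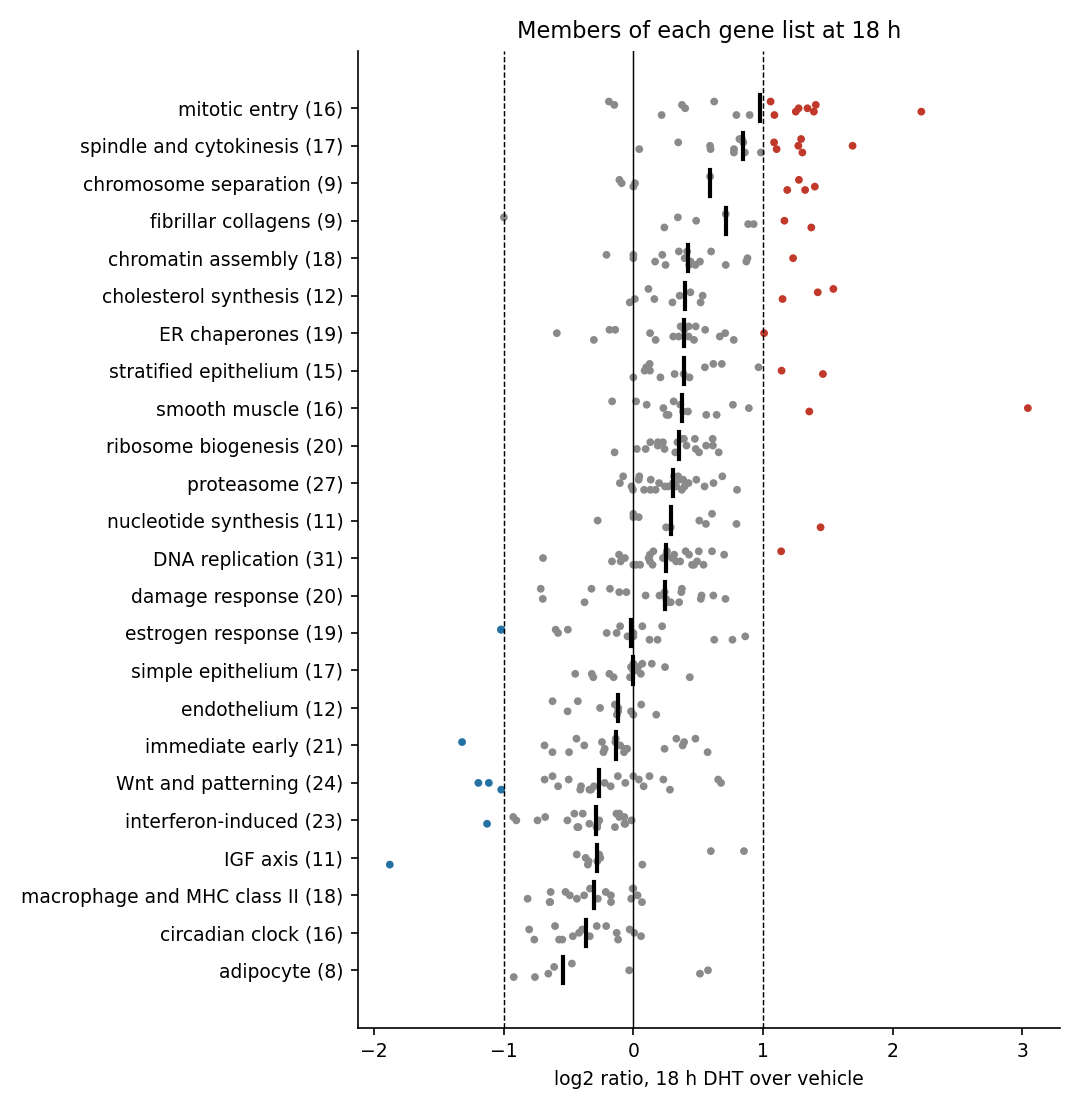
Log2 ratio of 18 h over vehicle for each gene (point) of 24 gene lists, with the number of genes passing the filter in brackets and the median as a black bar. Red points are at least 2-fold higher and blue points at least 2-fold lower, 1 array a side. The lists for entry into mitosis and for the spindle have the medians farthest to the right, 0.98 and 0.85, and every interferon-induced gene lies left of 0.

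Among single genes above the floor on both arrays, Acta1 had the largest ratio. Acta1 encodes skeletal muscle alpha-actin. It read 371.0 on the vehicle array, 359.2 and 305.8 at 1 and 3 h and 1256.6 at 6 h. On the later arrays it read 2681.9, 3060.3 and 2560.0, in order of time. The 18 h array was thus 8.25-fold above vehicle, and 6 h was the earliest array above the vehicle level. Other skeletal muscle genes did not accompany it, as far as they could be read. Of 10 markers that passed the filter, of 16 listed, 3 lay above vehicle and 5 below, with a median of -0.06. Their summed signal was 5248 on the vehicle array and 5003 at 18 h, of which Pvalb alone gave 2672.9 and 2750.4. On at least 1 of these arrays 4 of the 10 were at the floor. The actin genes are close in sequence, and how far their probes read each other was not tested.

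Smooth muscle genes were higher as well, by less. The list of 16 genes includes Acta1. Without it 14 of 15 genes lay above vehicle and 10 above the early arrays, with a median of 0.36. With it the median was 0.37, and 0.24 at 12 h and 0.57 at 24 h. Actg2, the smooth muscle gamma-actin, read 2370.8 on the vehicle array, 1668.7 to 2181.9 on the early arrays, 4532.6, 6075.1 and 6895.3 at 12, 18 and 24 h. Its 18 h signal was 1.36 above vehicle on the log2 scale, and the 3 later arrays were above the 4 others. Cnn1, which encodes calponin, an actin-binding regulator of contraction, was 0.89 above vehicle, and Cnn2 0.77. The CArG box, the site of serum response factor, was found in 4 of 20 smooth muscle promoters, or 20.0%, against 1.57% of all windows. The Acta1 window holds one, and its stretch is shown because Acta1 led the ratios, with the CArG box in capitals (chr8:123894761-123894885 (minus strand)).
Acta1: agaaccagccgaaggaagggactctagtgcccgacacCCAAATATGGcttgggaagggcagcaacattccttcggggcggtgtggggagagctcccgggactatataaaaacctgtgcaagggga

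Collagen genes were among the brightest on the array and were higher at 18 h. Over 9 genes of fibrillar and type VI collagen the median was 0.71, with 0.72 at 12 h and 0.75 at 24 h, and 8 lay above vehicle. Col1a1, the main chain of type I collagen, read 7164.2 on the vehicle array, 6458.5, 8092.1 and 10846.5 at 1, 3 and 6 h, 14378.8, 18558.3 and 17649.5 at 12, 18 and 24 h. Its ratio of 1.37 was matched by 1.31 on its other probe set. Col3a1, the type III chain, was 1.17 above vehicle, with 1.64 and 1.12 on its other probe sets. Col14a1, which binds to the surface of fibrils, went the other way, from 321.0 on the vehicle array to 160.6 at 18 h.

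Other matrix genes were mixed. Sparc, a collagen-binding protein of remodelling tissue, read 1512.1 on the vehicle array and 3187.8 at 18 h, and Vcan, the proteoglycan versican, 379.6 and 887.9. Serpinh1, the collagen chaperone, was 0.79 above vehicle. Col15a1, a collagen next to basement membranes, was 1.05 above vehicle, while Lamb3 and Lama3, chains of the laminin under epithelium, were both -0.56. Ccn2, a matrix-bound growth factor, had 638.6 on the vehicle array, 504.7, 496.8 and 348.0 on the early arrays, 264.8, 217.5 and 374.6 at 12, 18 and 24 h. It was lowest at 18 h, at 2.94-fold below vehicle. Tnxb, the matrix protein tenascin-X, read 1868.6 on the vehicle array and 659.0 at 18 h, 2.84-fold lower, and its other probe set had a log2 ratio of -0.70. It read 1651.7 at 24 h. Mmp11, a stromal metalloproteinase, was -1.30 at 18 h and -1.37 and -1.06 at 12 and 24 h. The list of matricellular proteins and proteoglycans as a whole had a median of -0.12, which became 0.00 with the floor at the 20th or the 60th percentile.

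**Figure D3:**
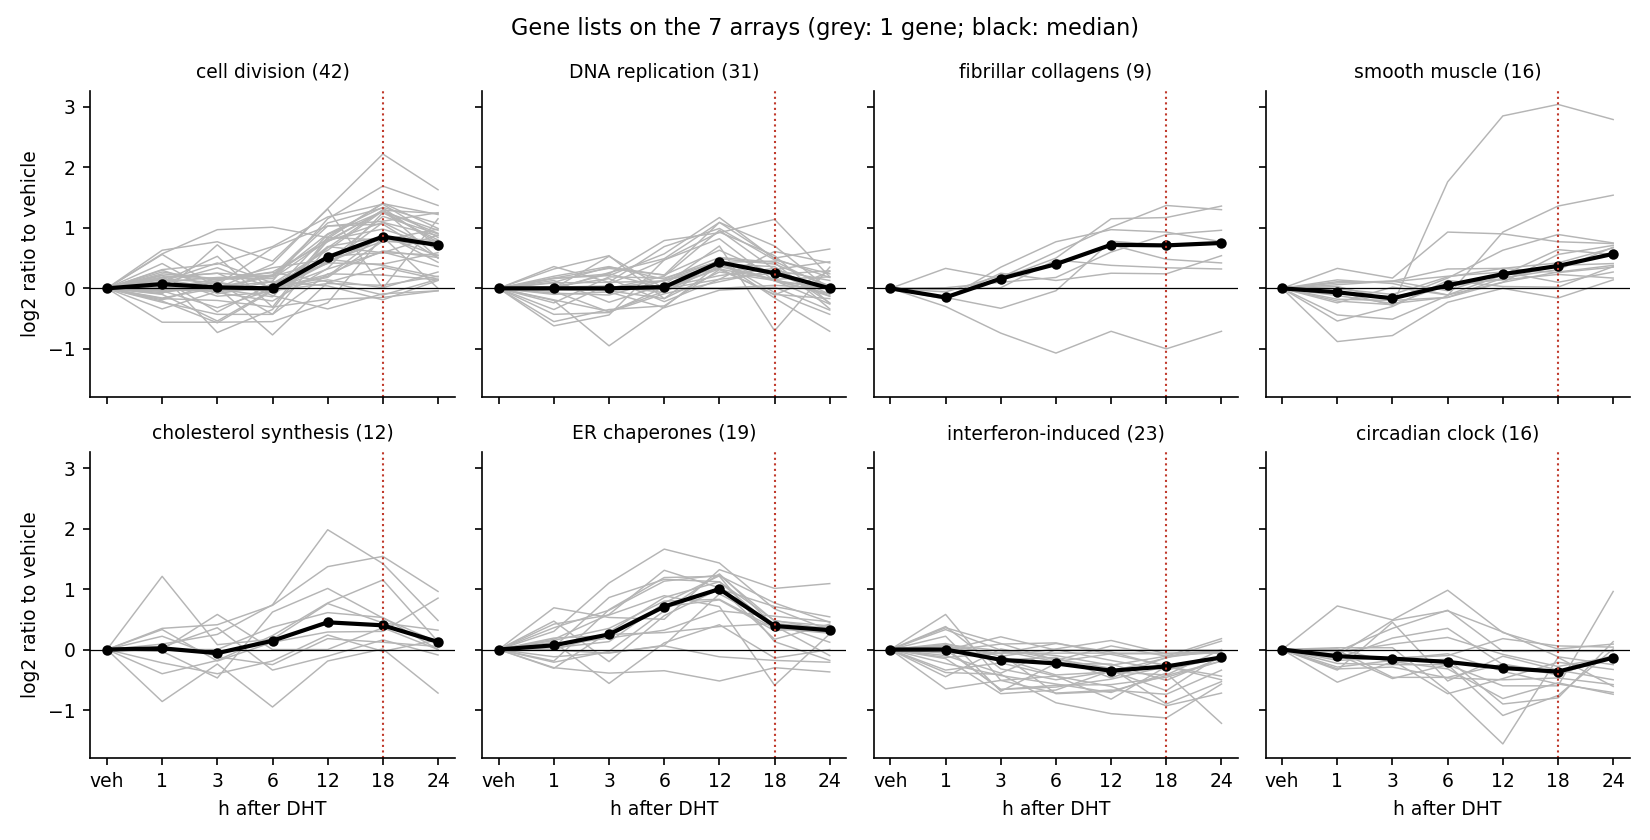
Log2 ratio to vehicle (vertical) on the vehicle array and at each time after DHT in h (horizontal, evenly spaced) for 8 gene lists, with each gene in grey and the list median in black. The dotted line marks 18 h. The cell division median reaches 0.85 at 18 h, after 0.52 at 12 h, while the replication median is 0.43 at 12 h and 0.25 at 18 h, and all ratios share the vehicle array.

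Genes for cholesterol synthesis were higher in part. The median over 12 genes was 0.40, with 11 above vehicle and 3 at least 2-fold higher, and it was 0.23 without the filter and 0.14 with the floor at the 60th percentile. Fdps, which makes the isoprenoid farnesyl diphosphate, read 418.2 on the vehicle array, 531.4, 554.7 and 694.7 on the early arrays, 1082.4, 1219.0 and 811.0 at 12, 18 and 24 h. Its other probe set gave a log2 ratio of 1.42 beside 1.54. Sqle, the first oxygen-dependent enzyme of the route to sterols, was 1.15 above vehicle at 18 h and 0.13 at 24 h. Idi1, which acts just before Fdps, was higher by at least 1.42, with its vehicle signal under the floor. Of 10 genes of fatty acid synthesis 3 lay above vehicle and 7 below, with a median of -0.08. Fasn, the fatty acid synthase, was -0.54 and the desaturase gene Scd1 -0.52, while Fads1, another desaturase, was 0.58. The sterol response element, searched as TCACNCCAC on both strands, was in 1 of 15 cholesterol promoters, or 6.67%, against 1.22% of all windows. CCAAT was in 14 of the 15.

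Genes for protein production and folding were above vehicle at 18 h by modest ratios. Of 20 genes of ribosome production 19 lay above vehicle, with a median of 0.35, and none was at least 2-fold higher. Their median was larger before, at 0.74 at 6 h and 0.60 at 12 h. Of 27 proteasome genes 23 lay above vehicle, with a median of 0.31, after 0.36 at 6 h and 0.48 at 12 h. The 19 genes of the endoplasmic reticulum (ER) for folding and translocation had a median of 0.39, well under their 1.00 at 12 h. The 18 h signal exceeded the 12 h signal in 2 of these genes, again with no share over all genes counted. Pdia3, a disulfide isomerase, was 1.01 above vehicle. Manf, an ER stress-induced protein, read 566.2 on the vehicle array and 1787.4, 1524.6 and 898.8 at 6, 12 and 18 h. The ER stress response element, searched on both strands as CCAAT followed after 9 bases by CCACG, and so containing a CCAAT box, was in 7 of 20 ER promoters against 0.13% of all windows.

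The hormone-response genes held some of the highest and some of the lowest ratios of the comparison. Of 21 genes that answer to androgen or glucocorticoid, 2 were at least 2-fold higher and 2 at least 2-fold lower, and the median was -0.02. Fkbp5, a co-chaperone of steroid receptors and a common androgen target, read 150.5 on the vehicle array, close to the floor, 172.9, 329.8 and 818.3 at 1, 3 and 6 h, 1036.9, 830.2 and 364.4 at 12, 18 and 24 h. At 18 h it was 5.52-fold above vehicle and below its 12 h level. Zbtb16, a steroid-induced transcriptional repressor, read 226.8 on the vehicle array, 1145.6 at 6 h and 660.9 at 18 h. The 2 lower genes were Igfbp3, given below, and Cdkn1c, at -1.01. Hsd11b2, whose enzyme inactivates corticosterone, was 0.90 above vehicle, and it was chosen after its values were seen.

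Igfbp3, which binds and carries insulin-like growth factors in the blood and tissue, was the brightest of the 10 genes of lowest ratio named here. It read 4755.4 on the vehicle array, 5207.3, 3954.0 and 3208.4 at 1, 3 and 6 h, 1624.9, 1292.4 and 3066.8 at 12, 18 and 24 h. It was lowest at 18 h, 3.68-fold below vehicle, and its other probe set gave a log2 ratio of -1.12 beside -1.88. Igf1 itself was 0.07 from vehicle on its brightest probe set, but 1.95 above it on the other, which read 209.5 on the vehicle array and 808.1 at 18 h, so its probe sets do not give 1 answer. On the brightest probe sets 8 of 11 genes of the IGF axis lay below vehicle, with a median of -0.28. The receptor genes showed smaller ratios: Esr1, the estrogen receptor, was -0.07 on its brightest probe set but -0.64 and -0.63 on the 2 other ones above the floor, and Pgr, the progesterone receptor, went from 357.1 to 240.1 (log2 ratio -0.57). In the uterine estrogen response list the median was -0.02 over 19 genes. Wnt4, a secreted signal of uterine stroma, was at least 1.02 below vehicle and at the floor at 18 h, and Car3, a carbonic anhydrase, was -1.02. Sprr2f and Sprr2b of the same list went the other way, at 0.86 and 0.76 above vehicle.

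**Figure D4:**
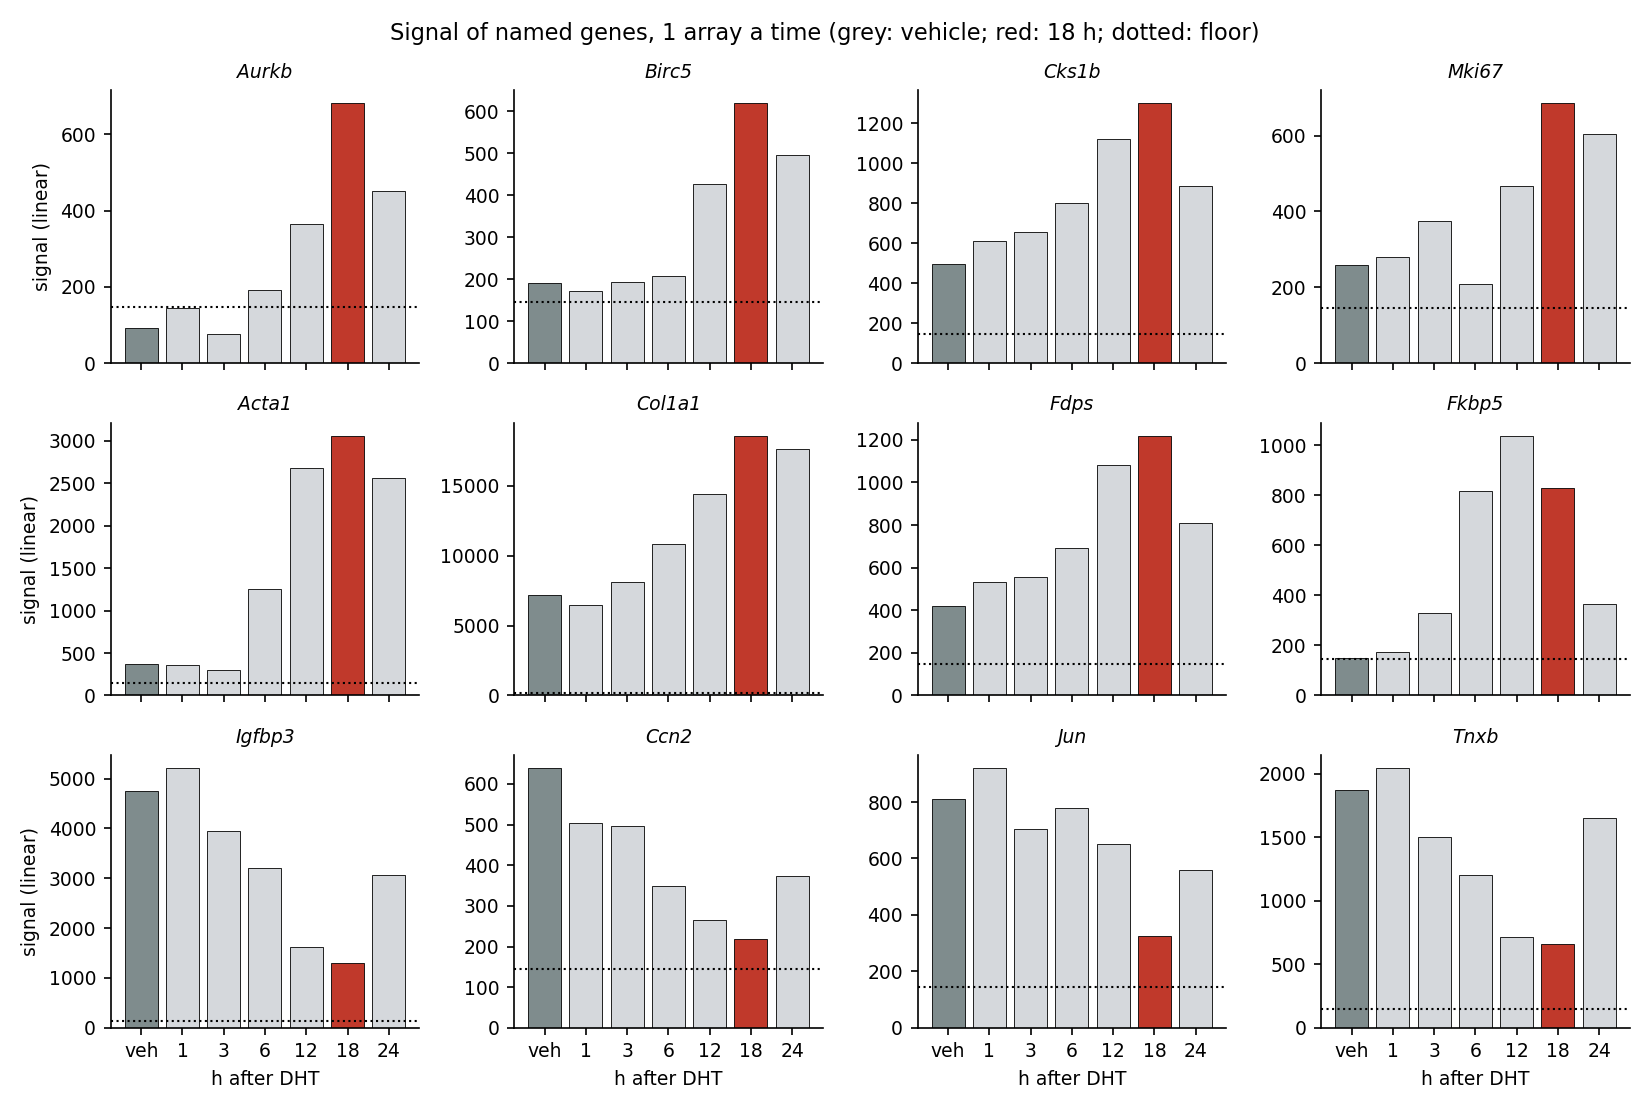
Signal (vertical, linear and starting at 0) of 12 named genes on each of the 7 arrays, by time after DHT in h (veh, vehicle), 1 array a bar, with vehicle in dark grey and 18 h in red. The dotted line is the floor of 145.9. Aurkb, Birc5, Cks1b, Mki67, Acta1, Col1a1 and Fdps are highest at 18 h, and Igfbp3, Ccn2, Jun and Tnxb are lowest there, whereas Fkbp5 is highest at 12 h.

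Markers of stratified epithelium were higher, while those of simple epithelium, the normal lining of the uterus, had a median of 0.00 over 17 genes. Of 15 stratified epithelium genes 14 lay above vehicle and 11 above the early arrays, with a median of 0.39 (0.17 without the filter), below the 0.70 of 12 h. Krt6a, a keratin of activated squamous cells, read 895.9 on the vehicle array, 1164.7, 2112.6 and 2284.3 on the early arrays, 6403.8, 2469.5 and 1073.2 at 12, 18 and 24 h. The 18 h ratio was 1.46, and 1.65 on its other probe set. Krt13, a keratin of moist squamous epithelium, was 0.97 and 1.18 on its probe sets, and Sprr1a, a precursor of the cornified envelope, was 1.14. The summed signal of the stratified list was 15838 on the vehicle array and 21668 at 18 h, and that of the simple list 26986 and 25840. Among simple epithelium genes Krt18 was -0.45 and Dsp, the desmosome protein desmoplakin, 0.44. Krt5, Krt14 and Krt15, which define basal squamous cells, had no probe set that passed the filter.

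Interferon-induced genes lay below vehicle in all 23 that passed the filter, 2 of them with the 18 h signal at the floor, and the median was -0.28. Of the 23, 1 passed only through the vehicle array and so had to lie below. Of all genes 49.1% lay below. Only Ifi204, a DNA sensor, was at least 2-fold lower, from 723.9 on the vehicle array to 331.0 at 18 h, and 8 of the 23 lay below the early arrays. Igtp, a GTPase that acts against intracellular parasites, was -0.93 and Ifi35 -0.90. Genes of macrophages and of antigen presentation by major histocompatibility complex (MHC) class II were lower too: 15 of 18 lay below vehicle and 12 below the early arrays, with a median of -0.30. H2-Ab1, a class II chain, read 1424.8 on the vehicle array, 1211.1 to 1340.0 on the early arrays, 855.2, 809.3 and 875.4 at 12, 18 and 24 h. Cd74, the chaperone of class II molecules, was -0.64, and Lyz2, the lysozyme of macrophages, was also -0.64 but 0.31 at 24 h. The summed signal of this list was 27570 on the vehicle array and 21116 at 18 h. Whether fewer such cells or less RNA per cell lies behind these values was not tested.

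Wnt and patterning genes were lower in more cases than higher. Of 24 genes 16 lay below vehicle, against 49.1% of all genes, 14 lay below the early arrays and 3 were at least 2-fold lower, with a median of -0.26 (-0.12 with the floor at the 60th percentile). Sfrp4, a secreted Wnt inhibitor, went from 566.8 to 247.4, and Wnt5b, a Wnt ligand, from 365.7 to 168.8. Hoxa11, a homeobox gene that uterine development needs, was 0.65 above vehicle. Jun, a subunit of the AP-1 factor, read 810.9 on the vehicle array, 651.8 to 919.9 from 1 to 12 h, 324.4 at 18 h and 560.2 at 24 h. It was 2.50-fold below vehicle, and the 18 h array alone was that low. Its partner Fos went the other way, from 493.7 to 734.4, and the median of the 21 immediate early genes was -0.14.

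Clock genes were lower at 18 h as well, in a comparison where the hour of death is not given. Of 16 genes 14 lay below vehicle, with a median of -0.37 (-0.22 with the floor at the 60th percentile), and 8 lay below the early arrays. Tef, a clock output factor, read 1771.1 on the vehicle array, 1489.6 to 1507.2 on the early arrays, 830.0, 1042.6 and 1784.2 at 12, 18 and 24 h. Nr1d2, a repressor in the clock loop, was likewise lower, with log2 ratios of -0.90, -0.80 and 0.13 at 12, 18 and 24 h. The list median was -0.31 at 12 h and -0.14 at 24 h. The vehicle mice were killed at the delay of the 24 h array, and what the delay or the hour of death contributes was not tested. Dbp, another output factor, was at the floor at 12 and 18 h and 0.96 above vehicle at 24 h. Arntl, an activator of the loop, was -0.57 at 18 h and -0.71 at 24 h. Lights were on for 12 h a day.

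Fat cell markers were lower. The 8 adipocyte markers had a median of -0.54, and 6 of them lay below vehicle. The median was -0.25 without the filter, -0.30 with the mean of probe sets and -0.27 with vehicle and 1 h as a joint reference. Adipoq, the hormone adiponectin, read 2467.8 on the vehicle array and 1457.7 at 18 h, and Retn, the hormone resistin, 1521.3 and 802.1. The summed signal of the adipocyte list was 6409 on the vehicle array and 4302 at 18 h, and the part that fat around the uterus plays in the lower genes was not tested. The 3 markers of mesothelium, the outer lining, had a median of -0.46 (-0.23 without the filter), with Upk3b at -0.57, Wt1 at -0.46 and Krt19, which epithelium shares, at 0.00. The 2 erythroid markers had a median of -0.23. Nearer to vehicle, the 12 endothelial markers had a median of -0.12, the 11 stromal markers -0.07 (-0.34 with the floor at the 60th percentile), the 8 lymphocyte markers -0.08, the 8 mast cell and granulocyte markers 0.00 and the 6 nerve markers -0.03.

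ATM and Gadd45g, which the title of the series names, both lay below vehicle at 18 h. Gadd45g, a stress gene that slows the cell cycle, read 435.4 on the vehicle array, 1481.4, 3182.8 and 790.1 at 1, 3 and 6 h, 429.9, 268.2 and 348.9 at 12, 18 and 24 h. Its 18 h signal was its lowest, with a log2 ratio of -0.70. Gadd45a was -0.71, and Gadd45b was at least 0.29 above vehicle, which was under the floor. The other probe set of Gadd45b read 146.1 on the vehicle array, barely over the floor, and 67.1 at 18 h, under it. Its ratio of 0.00 is thus set by the floor. Atm, the kinase that senses broken DNA, read 501.0 on the vehicle array and 385.9 at 18 h, inside the 367.6 to 688.3 of the other arrays. Over 20 genes of ATM, Gadd45 and p53 signalling the median was 0.25, with 13 above vehicle and none at least 2-fold away. The median was 0.37 with the floor at the 20th percentile, 0.00 with the floor at the 60th and 0.09 without relaxed and family probe sets. Rad9a, a checkpoint gene, passed the filter only through the 18 h array and so had to lie above. The highest were Prkdc, a kinase of break repair, at least 0.71 above vehicle, and Sfn, an epithelial damage gene, 0.62.

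Stress, metabolic and signalling lists had medians from -0.29 to 0.28, some as far from 0 as those of lists given above. The 18 heat shock and chaperonin genes had a median of 0.28 (0.18 with the joint reference), after 0.64 at 6 h and 0.58 at 12 h. At 18 h 15 of these genes lay above vehicle. Tcp1, a chaperonin subunit, was 0.89 above it. The median of 16 glycolysis genes was 0.13, with the hexokinase Hk2 at 0.69. The 12 genes of collagen maturation had a median of 0.24 (0.10 with the floor at the 60th percentile), led by Serpinh1 and by Pcolce, an enhancer of procollagen processing, at 0.78, and the 18 basement membrane genes 0.12. The 8 matrix proteases and inhibitors had -0.29, which was -0.12 with the floor at the 20th percentile and 0.00 without the filter, and Timp3, a tissue inhibitor of metalloproteinases, was -0.71. Medians were -0.06 for 22 genes of TGF-beta and BMP signalling, where Bmpr1a, a BMP receptor, was 1.12 above vehicle, and -0.07 for 13 genes of vascular tone. They were -0.09 for 17 apoptosis genes and -0.03 for 9 steroid receptor and coregulator genes.

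A further set of genes had large ratios without belonging to a list. Mthfd2, a mitochondrial folate enzyme that supplies carbon for nucleotide synthesis, read 257.2 on the vehicle array, 992.9 at 6 h, 1155.7, 825.4 and 515.2 at 12, 18 and 24 h. Kat2a, a histone acetyltransferase, read 146.1 on the vehicle array, barely over the floor, and 420.6 at 18 h. Lgals7, a galectin of squamous epithelium, and Col9a1, a cartilage collagen chain, were higher by at least 3.98-fold and 3.94-fold, with vehicle signals under the floor. Lgals7 already read 405.8 at 1 h and was at least 278.4 on every array after DHT, so the vehicle array alone was low. Col9a1 was highest at 3 h, at 658.2 against 574.4 at 18 h. Among the lower genes, Hic1, a transcriptional repressor, read 1031.8 on the vehicle array and 277.0 at 18 h, but its other probe set gave -0.29 beside -1.90. Kcnj8, a potassium channel subunit of vessel muscle, was -1.53, and H1f2, a linker histone, -1.41. Lepr, the leptin receptor, was at the floor at 18 h and at least 3.18-fold below vehicle. Mup5 and Olfr94, with ratios of -1.63 and -1.35, belong to large gene families, and how far their probes read other members was not tested.

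Probe sets of the same gene did not always give the same ratio. Among 23 genes at least 2-fold from vehicle on their brightest probe set and with others, 18 of the 27 other probe sets had the same sign, 6 of these were also at least 2-fold, 5 had the opposite sign and 4 were at the floor on both arrays. Grik5, a glutamate receptor subunit, was 1.66 on its brightest probe set and -0.06 on the other. Rab31, a vesicle GTPase, was 1.48 and 0.06, Larp7, an RNA-binding protein, at least 1.47 beside 0.24 and -0.39, and Uck1, a uridine kinase, -1.73 and 0.06. Probe sets whose name shows that the maker relaxed the choice of probes were at least 2-fold from vehicle in 4.85% of cases, against 2.59% of those marked as reading a sequence family and 2.26% of the rest. Rag1, at least 4.30-fold lower, rests on a probe set of relaxed choice, and so do the values given for Gtf2f2, Grik5, Pold2, Kif22, Hmgb2, Ube2c and Phf7. Ifi204, Actg2, Mybl2, Sprr2b, Snrp1c-ps2, Fdps and Mup5, among others, rest on probe sets marked as reading a sequence family. How far those probes read other genes was not tested.

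Few genes stood apart on the 18 h array alone. At least 2-fold beyond all 6 other arrays were 2 genes above and 2 below, against 0 to 4 above and 0 to 5 below on the other arrays. Mxd3, a partner of Max in the Myc network, read 316.0 at 18 h and 84.7 to 140.0, all under the floor, elsewhere. It passed the filter only through the 18 h array, so the filter fixed that it stood apart there. Snrp1c-ps2, which its name marks as a pseudogene, read 1850.6 at 18 h and at most 821.4 elsewhere. The lower ones were Phf7, with 288.8 at 18 h, and Snx17, a sorting nexin, with 133.6, and for both the other probe set was within 0.19 of vehicle on the log2 scale. Ada, adenosine deaminase, read 59.7 at 18 h, under the floor, against 755.6 on the vehicle array, 259.8 at 6 h and 822.8 at 24 h. Ada was at least 5.18-fold below vehicle. Gtf2f2, a general transcription factor subunit, read 171.6 at 18 h and 149.5 at 3 h but 655.7 to 1096.9 on the others. Kdelr2, an ER retrieval receptor, was 1.12 above vehicle at 18 h and below vehicle at 6 and 12 h, and Rab3a, a secretory GTPase, was 1.09 above vehicle and near it at 12 and 24 h.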

How the data were processed

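The 2 arrays compared, and the 5 set beside them, are Affymetrix U74Av2 arrays of pooled uterine RNA. The authors deposited linear signal intensity, and the submitters' processing notes name MAS5 with no version. A trimmed mean of 500.2 was found on every array, so a common scaling had been applied, and it was kept. Detection calls were not used here. Of 12422 probe sets other than 66 controls, 10833 named 1 gene, 396 several and 1193 none. Symbols came from the platform annotation, and 10817 were matched by gene identifier to the RefSeq table of GRCm38.p6, whose symbol was then used. A floor at the 40th percentile over the 7 arrays replaced lower signals, log2 was taken, and probe sets with a mean log2 over 7 arrays above that floor were kept. The brightest probe set that named 1 gene stood for the gene. Calls are at 2-fold. With 1 array a side no test was made, and the number of arrays limits the precision. With each time on 1 array, an array effect and the time cannot be told apart.

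Gene lists, 45 in all with the 3 mitotic lists joined as well, were described by their median. Genes named were drawn from the 10 highest and lowest ratios that 12 or 24 h shared in sign at 0.5 or more, the 4 highest and lowest without that, the 4 largest bounds in each direction, the 4 members of each list farthest from vehicle, Gadd45a, Gadd45b, Gadd45g, Atm, Esr1 and Pgr, and not all of these are printed. Another gene is not reported here. The promoters are of the 6 genes of largest ratio in the list of highest median whose window held CCAAT or TTTGAA, and Acta1. Ccna2, Mybl2, Foxm1, Ube2c, Hsd11b2, Igf1, Krt5, Krt14, Krt15 and the genes of the closing observations were chosen after their values were seen. The comparison, lists and rules were chosen with earlier results of these data known. The procedure was tested on simulated data, with changes planted only in probe sets far above the floor and less noise than the spread of these ratios. That test does not cover signals near the floor. Alternatives changed the floor, filter, scaling, threshold, probe set choice and reference. Python 3.11.15, pandas 2.3.3 and numpy 2.4.6 were used.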

Additional observations from a re-analysis of the deposited data

How the results depend on the processing

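The numbers of genes and probe sets past the threshold depended on the floor and on the threshold. With the floor at the 20th percentile 230 genes were higher and 280 lower (355 and 437 probe sets), and with the floor at the 60th 37 and 24 (49 and 32). At 1.5-fold 365 genes were higher and 343 lower (485 and 476 probe sets), and at 3-fold 9 and 10 (18 and 12). These changes follow from the construction of the alternatives. Quantile normalization, centring on the median, no filter, the mean of probe sets and a joint reference of vehicle and 1 h kept the counts they could give within 1.5 times. An alternative chosen after seeing the data left out probe sets with relaxed rules or shared families, which also moved the floor to 164.9 and left 7042 probe sets, and gave 58 lower probe sets against 89, and Grik5 turned to -0.06 there. With the floor at the 60th percentile the medians were 0.51 for spindle genes, 0.13 for replication, 0.14 for cholesterol, -0.12 for Wnt and -0.22 for clock genes. Without the filter replication was 0.15 and cholesterol 0.23. The median for chromosome separation was 0.30 with quantile normalization, 0.30 without the filter, 0.33 with the mean of probe sets, 0.39 with the joint reference and 0.89 without the relaxed and family probe sets. Smaller lists moved too: without the filter the medians were -0.25 for adipocyte, 0.17 for stratified epithelium and -0.23 for mesothelium markers. With the floor at the 60th percentile they were 0.00 for damage response and -0.34 for stromal genes, and with the floor at the 20th nucleotide supply was 0.56. With the joint reference they were -0.22 for androgen and glucocorticoid response and -0.14 for estrogen response. The matricellular median turned from -0.12 to 0.00 at both floors. Over the alternatives, 317 of 359 values of list medians lay within 0.1 or 1.5 times of the reported median, and 1519 of 1572 values of gene ratios within 1.5-fold. The median of all genes moved by at most 0.01. No paired analysis was possible because each group has 1 array. Signals near the floor limit what can be read for genes such as Aurkb, Fkbp5 and Idi1.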

Other observations

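Further genes at least 2-fold from vehicle at 18 h that no list covers are given singly, chosen after their values were seen. Psat1, an enzyme of serine synthesis, read 534.0 on the vehicle array and 1424.2, 1251.5 and 879.1 at 12, 18 and 24 h, and Srm, the spermidine synthase, was 1.07 above vehicle. Aldh1a2, which makes retinoic acid, was higher by at least 2.51-fold at 18 h, with vehicle under the floor. Fkbp11, an ER prolyl isomerase, read 153.2 on the vehicle array, close to the floor, and 392.5 at 18 h. The ER retrieval receptor gene Kdelr3 read 578.1 and 1173.6. Nme2, a nucleoside diphosphate kinase, was 1.03 above vehicle.

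On the lower side, Dio2, which activates thyroid hormone, read 2289.5 on the vehicle array, 3551.3 at 3 h and 1675.8, 1047.7 and 1048.0 at 12, 18 and 24 h. Abca1, the exporter of cholesterol, was -1.03, and -0.87 on its other probe set. The chemokine gene Cxcl14 read 1542.6 on the vehicle array, 696.9 at 18 h and 737.2 at 24 h. Ptger4, a prostaglandin receptor, was -1.12 at 18 h and -0.29 at 24 h, and the amino acid transporter genes Slc7a7 and Slc7a8 were -1.20 and -1.07.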
